A study of Mus musculus with 4 samples.

Results

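The stretch of mouse chromosome 17 that holds the major histocompatibility complex (MHC) was described here without its antigen-presentation genes. Its members were the array probes placed on chromosome 17 from 28000000 to 38000000 (build mm7, per the files), leaving out the H2, Tap, Tapbp, Psmb8, Psmb9, C4, Rps and Rpl genes by name. There were 364 such probes of 41174 on the array, under 266 gene names, and 65 further probes of the window were left out by name. The window had been chosen from the measured difference between mutant and null mice around D17H6S56E-5, so that difference is given below as a description and without a test. Members lay between 28.0 and 36.5 Mb. A filter on dim probes kept 258 members under 184 names, or 70.9%, against 60.4% of all probes. The other 106 members, among them most of the odorant receptor genes, did not pass it and are not called unchanged.

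Prostate RNA of 4 mice aged 60 days was measured on 4 two-colour arrays, on a mixed background of C57BL/6, 129/SVJae and FVB. In the 2 mutant mice (Rb1R654W/F:Trp53F/F:PB-cre4), 1 Rb1 allele coded for the R654W protein, described in the series title as deficient in E2F binding, and the other was conditional. In the 2 null mice (Rb1F/F:Trp53F/F:PB-Cre4) both Rb1 alleles were conditional. All 4 mice also carried conditional Trp53 alleles and a Cre transgene driven by the probasin promoter, which acts in prostate epithelium, so only part of each tissue sample carries the deletions. Each array set the RNA of 1 mouse (red, Cy5) against 1 pool of 3 wild-type prostates (green, Cy3), and values are log2 ratios of mouse to pool. The dyes were not swapped. In whole tissue, fewer cells of a type and less RNA per cell cannot be told apart.

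The MHC is a dense run of genes. Between the antigen-presenting class I and class II genes lies the class III region, which holds complement components, inducible 70-kDa heat shock proteins, the tumour necrosis factor family cytokines and many housekeeping genes with no immune role, such as an aminoacyl-tRNA synthetase and RNA helicases. Neighbouring genes there often share a short stretch between their starts. The retinoblastoma protein holds E2F transcription factors at promoters of cell cycle genes, which is the contact that the mutant allele is described as lacking.

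The sequences shown first belong to the genes that lead the difference between the genotypes. D17H6S56E-5, a protein-coding gene also known as G7e, is read on the minus strand, and Vars, which encodes valyl-tRNA synthetase, starts 132 bases away on the plus strand (RefSeq, GRCm38.p6). Vars is named Vars2 in the array files, a symbol that now belongs to the mitochondrial enzyme, which the files call Vars2l. The whole stretch between D17H6S56E-5 and Vars, chr17:35000775-35000906 (GRCm38.p6, minus strand, from RefSeq), has 68.9% G and C and is printed with the match to an E2F motif in capitals:
D17H6S56E-5 to Vars: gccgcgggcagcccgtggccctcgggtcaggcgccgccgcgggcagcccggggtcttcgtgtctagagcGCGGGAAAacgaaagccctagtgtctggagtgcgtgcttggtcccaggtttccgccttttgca

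The motif search took the E2F letters TTTCCCGC, TTTGGCGC, TTTCGCGC and TTTGCCGC on both strands, over the 300 bases around each gene start that RefSeq gave. It found a match at 704 of 27025 genes, or 2.6%. Of the 184 current symbols measured in the interval, 120 had an entry, and 9 of these (7.5%) held a match: Atf6b, Csnk2b, D17H6S56E-5, Msh5, Ppp1r18, U2af1, Zfp414, Zfp871 and Znrd1. For comparison, the GC box GGGCGG was found at 73 of the 120 (60.8%) and 38.2% of all genes, the CCAAT letters at 62 (51.7%) and 41.1%, and TATAAA at 18 (15.0%) and 15.7%. A match is a description of letters and not a binding site.

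The opening 30 bases of the 60-base probes, 5′ to 3′ as in the files, are shown for the genes whose probes led the difference, so that it can be seen which probes are separate measurements. For Vars2, 1 of its 2 probes is shown. Capitals mark bases that both probes of a gene share.
D17H6S56E-5, chr17:33094273-33094332 (mm7, minus strand): caatcctggtgtaaattacctaactacagt
D17H6S56E-5, chr17:33094798-33094857 (mm7, minus strand): cattgtgatatgcaagctctatgttgttaa
Vars2, chr17:33111820-33112038 (mm7, plus strand): accgcccagtacagcttttggctctatgag
Rnf5, chr17:32686202-32686335 (mm7, minus strand): tttttcaccaccgtgttcaatgcccatgaa
Rnf5, chr17:32686334-32686393 (mm7, minus strand): atttggtgatgccgggggattccacttctc
Slc44a4, chr17:33025388-33025557 (mm7, plus strand): gcctacatcaTGATCGCCATCTATGGAAAG
Slc44a4, chr17:33025398-33025567 (mm7, plus strand): TGATCGCCATCTATGGAAAGAATTTTTGTG

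The Slc44a4 probes share a run of 50 bases and count as 1 target. The other pairs share no run longer than 7 bases, so D17H6S56E-5, Vars and Rnf5 were each read at separate places in their RNA. Positions of exons and untranslated regions were not used here.

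The arrays differed in brightness. In null mouse 1 the red channel stood clearly over background at 22168 probes, against 25034 to 26119 in the other mice, and its median background-subtracted signal was 20.5 against 55.1 to 90.1. The pool channel had medians of 24.2 to 24.9. Prostate epithelial markers were present in every mouse, and Tgm4, Pbsn and Hoxb13 were among those with both mutant mice above both null mice. All 4 measured genes of a seminal vesicle list lay below the pool, with a median of -0.61 in mutant mouse 2 against -4.64 to -3.59 in the other mice. Of 5 smooth muscle markers, 4 had both mutant mice below both null mice. The part of these shifts in the results that follow was not tested. All arrays came from 1 slide and 1 scan. Position on the slide and genotype cannot be told apart. On the mixed background, the strain origin of chromosome 17 in each mouse is not given, so it cannot be told apart from genotype either. The Rb1 probe read -0.65 and -0.24 in mutant mice against 0.09 and -0.87 in null mice, and whether it lies in the deleted part was not used here, so it does not check the labels.

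D17H6S56E-5 showed the widest gap between the genotypes among measured members whose mice did not overlap. Its first probe read 1.09 in mutant mouse 1 and 0.73 in mutant mouse 2, against -1.38 in null mouse 1 and -1.26 in null mouse 2. Both mutant mice were above the wild-type pool and both null mice below it. The difference of means was 2.23 (SE 0.21 from limma). The second probe read 0.43, 0.68, -0.94 and -1.03 in the same order, a difference of 1.54 (SE 0.19). The pool therefore lay between the genotypes, and the mean of all 4 mice was -0.21 ± 1.30 (SD, n = 4) and -0.22 ± 0.90 at the 2 probes. Every array was well above background in both channels at both probes. In the authors' deposited table, D17H6S56E-5 averaged 1.75 and 1.73 times the pool (mutant) and 0.184 and 0.212 times (null) in its 2 rows, which is 9.51-fold and 8.14-fold higher. With the processed signals of the scanner software the differences were 3.28 and 2.98, larger than with normexp and its offset.

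Vars, the gene across the 132-base stretch, moved the same way at both probes. One read 0.06 and -0.05 in mutant mice against -0.80 and -0.91 in the null pair, a difference of 0.86 (SE 0.18). The other read 0.36 and 0.13 against -0.42 and -0.60, a difference of 0.76 (SE 0.20). The mutant mice sat near or above the pool and the null mice below it, with no overlap. Leaving out any 1 mouse kept the differences between 0.64 and 0.91. Vars2l, for the mitochondrial enzyme 662 kb further on, differed by -0.26 and 0.04 at its 2 probes.

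Rnf5, a membrane-bound ubiquitin ligase that acts in degradation of endoplasmic reticulum proteins, lies 408 kb before D17H6S56E-5. It read 0.06 and 0.01 in mutant mice against -0.60 and -0.44 in null mice at 1 probe, and -0.05 and -0.08 against -0.98 and -0.55 at the other. The mutant mice stood close to the pool and the null mice lower, with differences of 0.55 (SE 0.18) and 0.70 (SE 0.22). Slc44a4, a choline-transporter-like protein 69.1 kb before D17H6S56E-5, read 0.43 and 0.55 in mutant mice against -0.54 and -0.04 in the null pair, a difference of 0.78 (SE 0.24). Its overlapping second probe read 0.49, 0.51, -0.20 and 0.07, so the mutant mice were above the pool and the null mice near or below it. The authors' deposited table gave 1.46 and 1.61 for Rnf5 and 1.52 and 1.76 for Slc44a4 as folds of mutant over null.

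**Figure D1:**
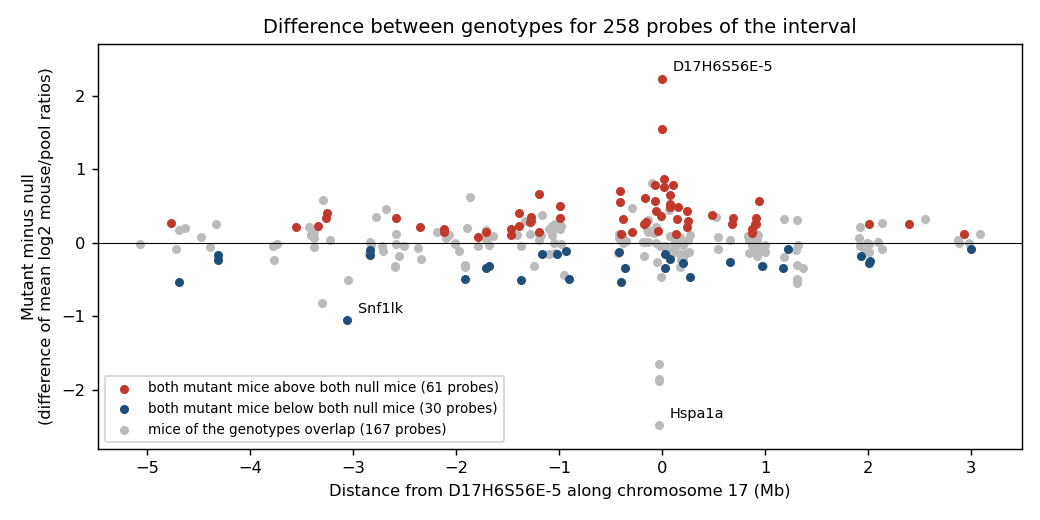
The difference of mutant and null mean log2 ratios (vertical axis) is plotted for 258 probes against distance from D17H6S56E-5 in Mb (horizontal axis), with 1 point per probe and colour showing whether the mice of the genotypes overlap. The 2 D17H6S56E-5 probes stand highest at 2.23 and 1.54, and the 4 lowest points belong to Hspa1a, whose mice overlap.

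Genes between and beside these differed in both directions. Of the 6 measured probes on either side of D17H6S56E-5, those of Lsm2, a subunit of the U6 snRNA ring, gave 0.36 and -0.47, 10 bases apart. The mice overlapped at the second Lsm2 probe, and its difference was 0.09 without mutant mouse 1. On the other side of Vars, Ng23 (now Sapcd1) gave -0.07 and -0.34, D17H6S56E-3 (now Vwa7) -0.15, and the meiotic mismatch gene Msh5 -0.05. Clic1, an intracellular chloride channel protein 61.2 kb beyond, gave -0.16. Neu1, the lysosomal sialidase between Slc44a4 and the heat shock genes, read -0.20 and 0.13 in mutant mice against -0.63 and -0.30 in the null pair, a difference of 0.43, and its second probe overlapped between the genotypes with 0.22. The next 4 probes after Vars thus had differences of -0.34 to -0.05, against 0.76 to 2.23 at the 4 probes before them. These 4 are dim, with the pool well above background on at most 1 array, and their values depend on the background correction. With processed signals the Ng23 difference of -0.34 was -1.16. The authors' deposited table put Ng23 1.44-fold and 2.33-fold lower in mutant mice, and D17H6S56E-3 2.18-fold lower.

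**Figure D2:**
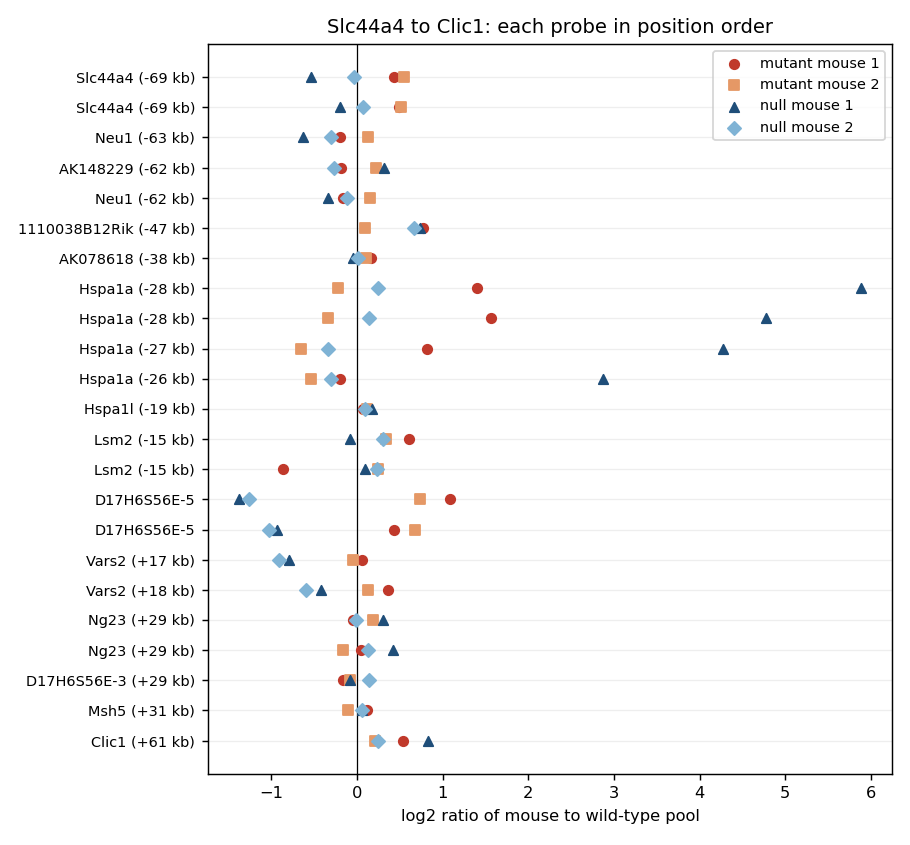
Each row is 1 probe from Slc44a4 to Clic1 in position order, with its distance from D17H6S56E-5 in kb, and each symbol is the log2 ratio of 1 mouse to the wild-type pool. At D17H6S56E-5 and Vars2 the 2 mutant mice lie right of the 2 null mice, while at Hspa1a null mouse 1 lies alone at 2.87 to 5.89.

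Across the interval, both mutant mice were above both null mice at 61 of 258 probes (23.6%), against 16.8% of all 24851 measured probes. Both mutant mice were below both null mice at 30 (11.6%), against 13.6%. With median centring of each array in place of loess, which raised the median difference of all probes to 0.38, the counts were 111 and 24, against 42.3% and 7.31% of all probes. With loess and only the brightest probe of each name, they were 34 and 26 of 184. That is 32.6% together, against 29.5% of all such probes. At 16 members (6.2%) the mutant mice were above and the null mice below the pool, against 3.82% of all probes, and at 8 (3.1%) it was the reverse, against 3.23%. Because the window was chosen from this contrast, nothing is read from those shares. On the rest of chromosome 17 the shares with both mutant mice above and both below the null mice were 19.7% and 14.2% of 852 probes. The median difference was 0.05 over the interval and 0.02 over all probes, so most members differed little: the quartiles of the differences were -0.13 and 0.22. The 2 mice of a genotype differed by a median of 0.20 (mutant) and 0.24 (null) at a member. The median absolute difference between the genotypes was 0.17, but it compares means of 2 mice, which vary less than single mice. Over all probes the same 3 values were 0.20, 0.27 and 0.17.

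By position, the members with higher mutant values were densest from 33 to 34 Mb, where 25 of 74 measured probes had both mutant mice above and 6 had both below. From 32 to 33 Mb the counts were 10 and 6 of 44, and from 31 to 32 Mb they were 11 and 5 of 40. From 30 to 31 Mb they were 4 and 3 of 26, and from 34 to 35 Mb 3 and 3 of 25. Over all probes the shares were 16.8% and 13.6%. These 1-Mb steps were set after the values were seen. At the ends of the window, Mdga1 and Zfand3 just inside the start differed by -0.02 and 0.27, and the last measured members, Olfr128 and LOC668138, by -0.09 and 0.12. Just outside, 1110021J02Rik and BC056481 differed by -0.19 and -0.22, and BC071254 and LOC673433 by -0.28 and 0.95.

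Other members with both mutant mice higher were spread over many roles. Bat5 (now Abhd16a), a lipid hydrolase, read 0.04 and -0.12 in mutant mice against -1.33 and -0.32 in null mice. Null mouse 1 set much of that gap, which was 0.79 with it and 0.28 without it. Ndufa7, a subunit of respiratory complex I, read 0.87 and 0.20 against -0.34 and 0.09 at 1 probe. That difference was 0.66, and 0.33 without mutant mouse 1. The second Ndufa7 probe overlapped between the genotypes with 0.11. Ly6g6d, of the Ly6 surface protein family, gave 0.48 and 0.65 at its 2 probes, and 0.22 and 0.32 without null mouse 1. Ring1, a Polycomb ubiquitin ligase, read 0.19 and -0.03 against -0.53 and -0.31, and its second probe -0.06 and -0.20 against -0.59 and -0.34. The splicing factor gene U2af1 differed by 0.34 and 0.40. Stk19 differed by 0.61 and 0.26 at 2 probes without overlap and by -0.18 at another that overlapped.

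Members with both mutant mice lower were fewer and their probes often disagreed. Snf1lk (now Sik1), a salt-inducible kinase, read -0.30 and -0.61 in mutant mice against 1.14 and 0.05 in null mice. The null mice were both above the pool, but the difference fell in size from -1.05 to -0.50 without null mouse 1. Brd2, a BET bromodomain protein, read -0.43 and -0.26 against 0.30 and -0.02, a difference of -0.49 (SE 0.21). Hnrpm (now Hnrnpm), a splicing factor, read -0.56 and -0.03 against 0.35 and 0.08. Its difference was -0.51, and -0.25 without mutant mouse 1. Agpat1, an enzyme of phospholipid synthesis next to Rnf5, gave -0.53 at 1 probe and 0.12 at the other, both without overlap and in opposite directions. Btbd9 gave -0.53 at 1 probe, or -0.28 without null mouse 1, and 0.20 and -0.06 at its others. Zfp472 had 1 probe without overlap (-0.49) and 2 with it (-0.30 and -0.33). Glo1, the glyoxalase that clears methylglyoxal, was the gene whose 2 probes both had the mutant mice lower, by -0.17 and -0.23. Fkbpl at -0.35 and Ng23 at -0.34 were the smallest differences that the naming rule, which passes over names that are no gene symbol, took here. With median centring Hnrpm, Brd2, Agpat1, Btbd9 and Fkbpl turned to 0.09, 0.12, 0.05, 0.02 and 0.27, which is below the median of 0.38 that all probes had there.

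Agreement between probes of a gene was examined for the 57 names with at least 2 measured probes. All probes had both mutant mice above both null mice for 12 names (21.1%), against 5.25% of 5698 names on the array, and all had them below for 1 name (1.75%), against 3.02%. The 12 names were Adamts10, Atp6v1g2, D17H6S56E-5, Ly6g6d, Nrm, Rab11b, Ring1, Rnf5, Slc44a4, U2af1, Vars2 and Zfp414. The chosen contrast enters these counts too, so they are given without a reading. Of the 57 names, 18 had opposite signs at their first 2 probes, and Agpat1 had non-overlapping probes in both directions. Over the first 2 probes of the 57 names the differences had a Pearson r of 0.81 and a Spearman rho of 0.51. Without D17H6S56E-5 and Hspa1a r was 0.52. These are correlations across genes that share the same 4 arrays, and some of the probe pairs overlap in sequence.

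**Figure D3:**
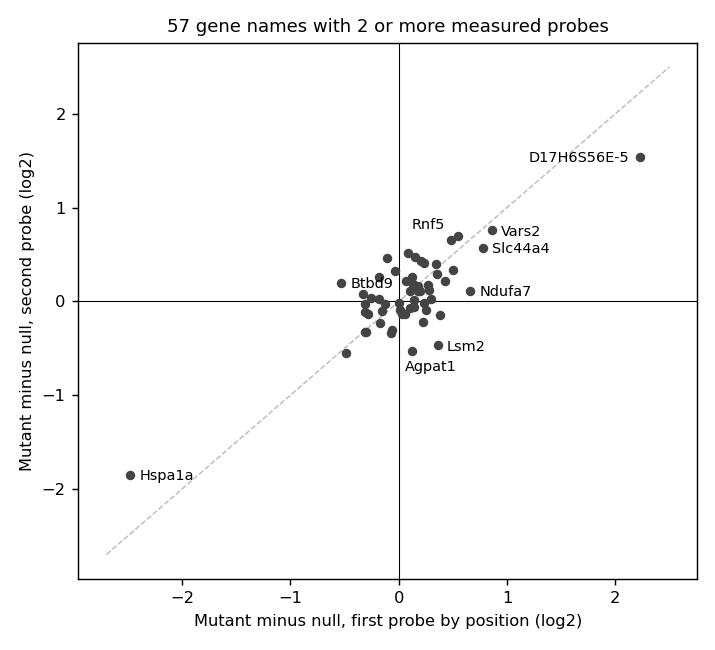
Each point is 1 of 57 gene names, with the mutant minus null difference (log2) of its first probe by position on the horizontal axis and of its second on the vertical axis, and a dashed line where both are equal. D17H6S56E-5 (2.23 and 1.54) and Hspa1a (-2.48 and -1.85) lie far from the rest, and Agpat1 and Lsm2 lie off the line with opposite signs.

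Against the wild-type pool, which the choice of the window did not use, the mean of the 4 mice was tested in limma with Benjamini-Hochberg adjustment over all 24851 probes. No member of 258 passed an adjusted p under 0.05, and 3 of all probes did (0.0121%). The pool is 1 control sample, so the variation among wild-type mice is missing from this test and unequal dye response stays in it. At an unadjusted p under 0.05 there were 18 members higher (6.98%) and 23 lower (8.91%), against 9.32% and 8.28% of all probes. The median over the interval was -0.01 and over all probes 0.02. All 4 mice lay above the pool at 37 members (14.3%, against 16.7% of all probes) and below it at 41 (15.9%, against 14.9%).

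Described here are the members with the smallest p among those with all 4 mice on 1 side of the pool, passing over names that are no gene symbol. Of the members with mice on both sides, 1 probe of Vars had an unadjusted p of 0.00494 and an adjusted p of 0.197 in limma. Abcf1, an ABC-family protein of translation initiation, read -0.91 and -0.53 in mutant mice against -0.70 and -0.62 in null mice, a mean of -0.69 ± 0.16 (SD, n = 4) with an adjusted p of 0.194 in limma. Its second probe read -0.73, -0.61, -0.24 and -0.49, a mean of -0.52. All 8 readings were below the pool. Skiv2l, a helicase of the cytoplasmic RNA exosome, read -0.44, -0.42, -0.68 and -0.74, Slc39a7, a zinc transporter, -0.25, -0.69, -0.62 and -0.68, and 1 probe of Ppp1r10, a phosphatase-targeting subunit, -0.58, -0.40, -0.48 and -0.37. The other probes of Ppp1r10 averaged -0.03 and -0.08. Among higher values, Angptl4, a secreted inhibitor of lipoprotein lipase, read 1.01 and 1.01 in mutant mice against 2.09 and 0.57 in null mice, a mean of 1.17 ± 0.65 with an adjusted p of 0.199 in limma. Without null mouse 2 its adjusted p was 0.0208, and over all alternatives it ran from 0.0208 to 0.8. Clic1 averaged 0.45, the complement protease gene C2 0.53 at 1 probe and 0.15 at the other, and Prr3 0.36 at 1 probe and -0.13 at the other. None of these passed the threshold. With median centring, under which all probes had a median of 0.37, Abcf1 was at -0.15 and 0.24 at these 2 probes, Skiv2l at 0.04 and Slc39a7 at 0.41, so only Slc39a7 of these crossed that median. There 21 members were called, against 17.1% of all probes (4250).

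**Figure D4:**
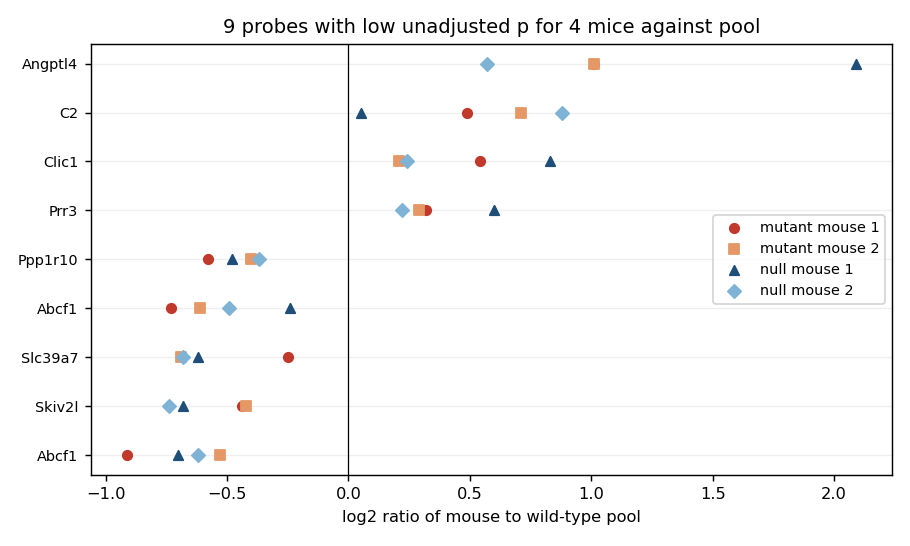
Each row is 1 of 9 probes among those with the smallest unadjusted p for 4 mice against the pool, 5 lower and 4 higher, and each symbol is the log2 ratio of 1 mouse to the pool. The rows were chosen to have all 4 mice on 1 side of 0, from -0.91 for Abcf1 to 2.09 for Angptl4.

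Grouped by role, no list held a member called against the pool. The lists were fixed with earlier results of these data known, so their counts are descriptions. The background for all of them is the 16.8% of all probes with both mutant mice above both null mice and the 13.6% with both below. Of 26 measured probes for RNA processing and translation, 9 had both mutant mice above both null mice and 2 below, with differences from -0.47 at Lsm2 to 0.86 at Vars. Transport, lipid and metabolic genes had 7 above and 4 below of 25, led by Slc44a4. Ubiquitin and protein quality control genes had 4 above and 1 below of 15, and the highest differences on the list were at Bat5, itself a lipid hydrolase, and Rnf5. In the same list Bat3 (now Bag6), a chaperone holding unfolded membrane proteins, gave -0.03, 0.32 and 0.05 at its 3 probes. Chromatin and transcription factor genes had 3 above and 2 below of 17: Ring1 led the first and Brd2 the second. Zbtb12 had a difference of 0.81 there, but its mice overlapped (0.94, -0.21, -1.03 and 0.14). The methyltransferase gene Ehmt2 differed by 0.13 and the histone chaperone gene Daxx by -0.15.

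Cell cycle, kinase and growth genes of the interval (Csnk2b, Msh5, Tubb5 and Ier3, at 5 measured probes) ranged in difference from -0.14 to 0.09, with none free of overlap. Cdkn1a and Pim1 lie before the window in mm7 and are not members. Notch, matrix and receptor genes had 2 above and none below of 12, Ddr1, a collagen receptor kinase, with 0.34 among them, while Notch4 differed by -0.14. The Ly6 family had 3 above and 1 below of 7. Complement and steroid enzyme genes had 3 above and none below of 9, at Stk19 and Skiv2l, which neighbour the complement genes and are neither complement nor steroid enzyme genes. C2 and Cfb overlapped between the genotypes. Of 40 odorant receptor probes only 6 passed the filter, with differences between -0.09 and 0.26.

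At Aif1, Lst1, C2 and Cfb, members known from immune cells or complement, the 2 null mice stood further apart than the genotype means. Aif1, a macrophage protein, read -0.08 and 0.07 in mutant mice against -0.29 and 0.94 in null mice at 1 probe, and 0.48, 0.23, -0.39 and 0.94 at the other. Null mouse 2 was highest and null mouse 1 lowest at both. Lst1 read 0.47, -0.02, 0.25 and 0.67, and C2 0.49, 0.71, 0.05 and 0.88. Complement factor B (Cfb) read -0.62, -0.38, -1.74 and 0.10, and Tnxb, a matrix protein, 0.80, 0.76, -0.59 and 1.20 at 1 probe. Of 12 measured leukocyte markers outside the interval, 8 were also highest in null mouse 2 and lowest in null mouse 1, while Cd3e was highest in null mouse 1 (0.39) and Cd52 in mutant mouse 2 (0.66). Among the 8, Lyzs (now Lyz2) read 1.58 and 1.25 in mutant mice against -1.22 and 1.86 in null mice, and Ptprc, the common leukocyte antigen, 0.66, 0.33, -0.17 and 1.07. Of the 12 markers, 4 lay above the pool in all 4 mice and 1 below, with medians of 0.17, 0.28, -0.05 and 0.45. Their part in the values of Aif1, Lst1, C2 and Cfb was not tested. Tnf was near 0 in every mouse (-0.11 to -0.02) with the processing used here. In the authors' deposited table its rows averaged 0.557 to 0.85 times the pool in mutant mice and 0.422 to 0.799 times in null mice. Those rows were 1.21-fold to 1.7-fold higher in mutant mice, except for 1 row that was 1.2-fold lower. Lta was lower in mutant (-0.34 and -0.41) than in null mice (-0.16 and -0.05).

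Hspa1a, which encodes an inducible 70-kDa heat shock protein 25.9 to 27.6 kb before D17H6S56E-5, had the lowest differences in the interval, and these rested on 1 mouse. Its first probe read 1.40 and -0.22 in mutant mice against 5.89 and 0.25 in null mice. The other 3 probes read 4.78, 4.27 and 2.87 in null mouse 1 and -0.34 to 0.14 in null mouse 2. Mutant mouse 1 was the next highest at every probe, with 0.82 to 1.56 at the first 3 and -0.20 at the last, so the genotypes overlapped. The differences were -2.48 to -1.65 with all mice and -0.07 to 0.47 without null mouse 1. Hspa1b, a near-identical copy, has no probe of its own name here, so signal from both cannot be told apart. Hspa1l, the testis form, read 0.07, 0.12, 0.18 and 0.09. Its probe was dim, with the pool well above background on 0 arrays. In the authors' deposited table Hspa1l was 3.42-fold lower in mutant mice, with a null mean of 2.41 and a standard error of 1.66. Heat shock genes elsewhere in the genome were also highest in null mouse 1. Hsp110 (now Hsph1) read 0.33 and 0.42 in mutant mice against 4.81 and 1.38 in null mice. Dnajb1 read 0.88 and -0.15 against 3.66 and -0.16, so its mice overlapped. Of the 5 such genes listed, 4 had both mutant mice below both null mice, against 13.6% of all probes. Null mouse 1 also had the dim array, and the part of mouse or array in these values was not tested.

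The 250 bases before the Hspa1a start, chr17:34972157-34972406 (GRCm38.p6, minus strand, from RefSeq), are shown because its probes had the lowest differences of the interval. Capitals mark the GC box GGGCGG, the CCAAT box and the paired heat shock element letters GAANNTTC, searched on both strands:
Hspa1a: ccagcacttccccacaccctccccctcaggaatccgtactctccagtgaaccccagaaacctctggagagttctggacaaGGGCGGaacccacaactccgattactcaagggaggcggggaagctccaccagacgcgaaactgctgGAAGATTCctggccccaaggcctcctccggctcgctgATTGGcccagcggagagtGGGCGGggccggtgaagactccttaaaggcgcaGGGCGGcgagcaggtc

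The heat shock letters were found at 11 of the 120 interval genes with an entry (9.17%) and at 9.04% of all genes. Among the other 10, Ppp1r10 at 1 probe and Ppt2 were low in null mouse 1, at -0.62 and -0.52. Another was Trim39, chosen after its values were seen, whose probes read 0.91, 0.69, 0.33 and 0.35 in null mouse 1 and -0.67 to 0.20 in the other mice. Without null mouse 1 the 4 Trim39 differences were 0.09 to 0.17, from -0.55 to -0.03 with it.

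**Figure D5:**
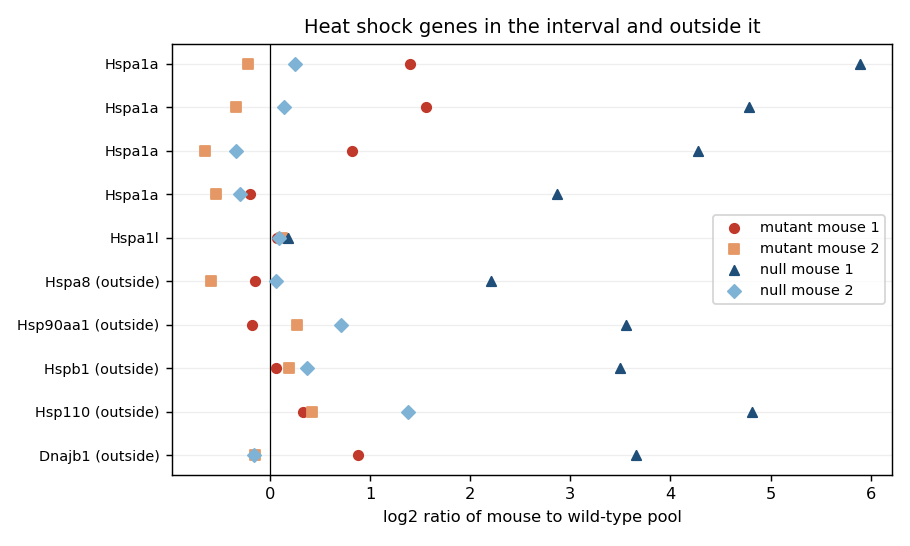
Each row is 1 probe of Hspa1a or Hspa1l in the interval, or of a heat shock gene outside it, and each symbol is the log2 ratio of 1 mouse to the pool. Null mouse 1 lies between 2.21 and 5.89 in every row except Hspa1l, whose probe is dim, and no other mouse exceeds 1.56.

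The antigen-presentation and other genes left out by name lie in the same window. Of their 46 measured probes, 9 (19.6%) had both mutant mice above both null mice, near the 16.8% of all probes, and none had them below, against 13.6%. Their median difference was 0.29. By mouse, their medians were 0.40 and 0.02 in mutant mice against -0.48 and 0.32 in null mice. Null mouse 2 thus lay above mutant mouse 2, and the lowest median was that of null mouse 1, the dim array. At H2-Eb1, an MHC class II chain, mutant mice read 1.03 and 0.88 and null mice -0.63 and -0.51. At 2 probes of H2-Q10, null mice read -3.10 to -2.42 and mutant mice -0.25 to 0.57. Other H2-Q10 probes, with differences of 0.32 and 0.30, overlapped between the genotypes.

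In the authors' deposited table, 175 of 297 member accessions had at least 1 row, and 124 of these 227 rows (54.6%) were higher in mutant mice, against 51.7% of all 26174 rows. Vars2 was 1.83-fold and 1.96-fold higher in mutant mice in the authors' deposited table, with standard errors of at most 0.0273 on its mean ratios. The table's Hspa1a rows were 8.03-fold to 14.9-fold lower in mutant mice, with null means of 5.6 to 27.7 and standard errors of 5.02 to 26.6 in the authors' deposited table.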

How the data were processed

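The scanner files deposited by the authors give spot brightness as intensity (mean, background, background-subtracted and processed signals) and a log10 ratio of red over green, per the file headers. In the authors' deposited table each row is a mean linear ratio per group, with no p-value. The scanner software was Agilent Feature Extraction, version 9.5.1.1 per the file headers and 8.5 per the submitters' processing notes.

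In limma 3.58.1 (R 4.3.3), normexp with an offset of 50 and then loess per array gave the log2 ratios. Control spots had no weight, flagged outlier spots were dropped, and spots of a probe were averaged. Each array held 41174 probes. The filter kept 24851 probes: those well above background in red on both arrays of either genotype or in green on all 4, and with a value on every array. A term per genotype was fitted with lmFit and eBayes. The mean of both terms was tested against 0, and their difference, which chose the interval, is given with its standard error only. With 2 mice against 2, an exact permutation test cannot go below p = 0.333. The fit was tested on simulated data.

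Members and lists were chosen with earlier results of these data known. Named were all probes of D17H6S56E-5, Rnf5 and Slc44a4, the 5 smallest p in each direction against the pool among members with all 4 mice on 1 side of it, the 8 largest differences without overlap each way (both passing over accession, clone and Rik names), the 6 nearest neighbours on each side, the 2 brightest of each role list with some fixed genes, and the probes at the window's ends. Some genes taken by this rule are not reported here. Others were chosen after their values were seen. Current symbols came from the accession for 252 of 364 members, the symbol for 37 and a unique older symbol for 23 (RefSeq, GRCm38.p6). The other 52 kept the file's name. Separate mice are the replicates, and their number limits the precision of every value.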

Additional observations from a re-analysis of the deposited data

Results flagged for a closer look

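At 16 probes of genes named above both mutant mice lay on 1 side of the wild-type pool and both null mice on the other, and that difference was not tested. These 16 are in both directions and only from named genes. Over all 258 measured members, mutant mice were above and null mice below the pool at 16 (6.2%), against 3.82% of all probes. The reverse held at 8 (3.1%), against 3.23%. Mutant mice were above and null mice below at both D17H6S56E-5 probes (differences of 2.23 and 1.54), at both Ly6g6d probes (0.48 and 0.65), and at 1 probe each of Slc44a4 (0.78), Vars2 (0.76), Ppp1r10 (0.56), Rnf5 (0.55), Atp6v1g2 (0.43), U2af1 (0.34) and Zfand3 (0.27). Mutant mice were below and null mice above at Snf1lk (-1.05), at 1 probe each of Agpat1 (-0.53), Btbd9 (-0.53) and Glo1 (-0.23), and at Hnrpm (-0.51).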

How the results depend on the processing

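The normalisation moved values most. With median centring in place of loess, which moved the median of all probes from 0.02 to 0.37 against the pool and from 0.02 to 0.38 between the genotypes, 21 members were called against the pool (4250 of all probes), the interval medians were 0.33 and 0.38, and Slc39a7 (0.41), Skiv2l (0.04) and 1 probe of Abcf1 (0.24) turned positive, while the other Abcf1 probe stayed at -0.15. With processed signals the interval medians were -0.06 against the pool and 0.08 between the genotypes, and with no filter the latter was 0.02. With the brightest probe per name, 60 of 184 probes did not overlap (32.6%, against 29.5% of all such probes), in place of 91 of 258. Leaving out each mouse gave 157 to 197 probes without overlap (60.9% to 76.4%, against 56.8% to 77.4% of all probes), since a lone mouse overlaps less often. These fits leave a lone mouse in 1 genotype, so their calls against the pool are not counted here. Under the alternatives that kept all 4 mice, other than median centring, calls against the pool stayed at 0. Of 173 differences of named probes under alternatives, 168 kept their direction. Many of these could not turn, because the filter, brightest-probe and replicate-block alternatives leave the difference of a probe as it was. The turns came with median centring, at Hnrpm, Brd2, Agpat1, Btbd9 and Fkbpl. The replicate numbers do not pair mice (r = 0.00355 over probes), and the replicate block also gave 0 calls. It cannot change the non-overlap count of 91. Dim probes limit the interval: 106 of 364 members were not measured.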
